A study of Saccharomyces cerevisiae with 5 samples.

Results

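Actin, the Arp2/3 complex, cofilin and the actin patch protein Abp1 are encoded by 10 genes of budding yeast (Saccharomyces cerevisiae), and their transcripts were followed here through recovery from high hydrostatic pressure. The genes were chosen by name, from the annotation of the array, as ACT1, ARP2, ARP3, ARC15, ARC18, ARC19, ARC35, ARC40, COF1 and ABP1. All 10 were among the 5196 named genes of the array, and all 10 had values in at least 2 hybridizations, as had 4368 genes and unnamed features in all.

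Exponentially growing cells were kept at 30 MPa and 25 °C for 16 h and then decompressed. One portion was harvested at decompression (0 h). The other was left to grow for 2 h at 0.1 MPa before harvest and is called recovery here. PolyA RNA of recovery was labelled with Cy5 and that of decompressed cells with Cy3, and both were hybridized on one spotted array in each of 3 hybridizations of independent biological samples. Both RNAs come from cells that had been pressurized, so no unpressurized cells enter the comparison. The labels name no strain.

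Actin assembles into filaments that, in yeast, form cortical patches at sites of endocytosis and cables that carry secretory vesicles to the bud. The Arp2/3 complex binds the side of an existing filament and starts a new branch there. Cofilin severs old filaments and so returns actin to the pool of monomers. Abp1 binds filaments of the patch and is a weak activator of Arp2/3.

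Values are log2 ratios, where -1 means that the level in recovery was 2-fold below that at decompression. The direction was taken as recovery over decompressed (Cy5 over Cy3), which is likely but not stated in the labels, and a ratio of decompressed over recovery would turn every direction below. The dyes ran the same way on every array, so change and dye bias of a gene cannot be told apart. Hybridizations 1 and 2 each had a high power and a low power scan, which were averaged. Hybridization 3 had a single scan, which gave values for 33.0% of the features. In the other scans 57.8% to 79.0% of the features had a value. No signal intensities were used here, so the brightness behind a ratio is unknown, and the number of arrays limits the precision.

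ABP1 and ARP2 were the members that fell in recovery, 2.85-fold and 2.29-fold. The other 8 members did not pass the test, and none rose. This count of 2 lower among 10 stands beside 9.62% lower and 9.57% higher among all 4368 tested, 19.2% in either direction (limma with Benjamini-Hochberg adjustment over all tested, at an adjusted p of 0.05). An unadjusted p under 0.05 was found for 6 of the 10 members and for 34.1% of all tested. The mean ratio was below 0 for 8 of the 10 members and for 50.5% of all tested, and the members' median was -0.50 against -0.01. The members were chosen with earlier results of these data known, so this contrast is a description only.

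**Figure D1:**
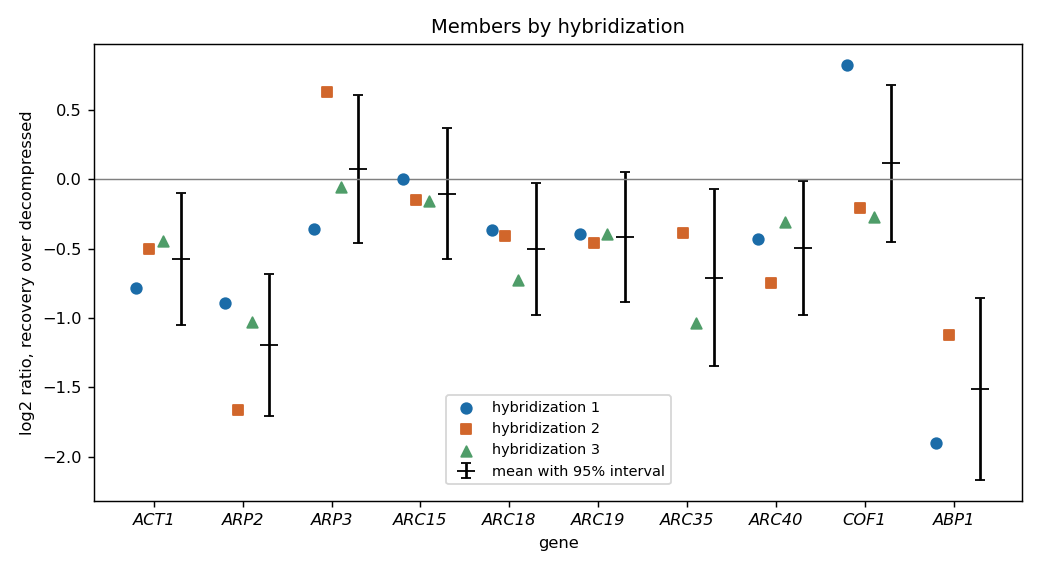
Log2 ratio of recovery over decompressed for each of the 10 genes, with 1 symbol per hybridization and the mean with its 95% interval from the fit over all genes. ABP1 and ARP2 lie lowest, while ARP3 and COF1 have values on both sides of 0.

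ACT1 (YFL039C) is the only gene for conventional actin in this yeast and is essential. Its log2 ratio was -0.78 in hybridization 1, -0.50 in hybridization 2 and -0.44 in hybridization 3. All 3 values lay below 0, within a narrow range. The mean was -0.58 ± 0.18 (SD, n = 3), a 1.49-fold lower level with a 95% interval of -1.05 to -0.10 on the log2 scale. The change missed the threshold after adjustment over all genes (limma adjusted p = 0.0834). Of all tested genes and features, 17.6% had a lower mean. An exact sign-flip test over 3 hybridizations cannot go below p = 0.25, so the calls here rest on the variance shared across genes.

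ACT1 occupied 13 features, each in a different one of the 48 blocks of consecutive features, and all 13 carried the same deposited value in every scan. The features therefore give 1 measurement, and the scatter between spots of ACT1 cannot be read from these values. Centring each feature on the median of its block left the mean at -0.58 and brought the adjusted p to 0.0338 (limma). For ACT1 this only subtracts the average of 13 block medians from the shared value, so it cannot correct ACT1 for position. The genes and features called went from 838 to 1075 under that centring. Without hybridization 1 the mean was -0.47 (limma adjusted p = 0.407).

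ACT1 is often used as a reference gene for transcript levels. When each hybridization was centred on ACT1, a setting added after the data were seen, 1742 genes were called higher and 117 lower of 4367 tested, against 418 and 420 on the deposited scale. The median of all genes moved up by 0.61 under that centring. Among genes with all 3 values, those nearest to ACT1 in Euclidean distance over the 3 hybridizations were RPB2 at 0.10, BCY1 at 0.12, PRS3 at 0.13, RPL15B at 0.16 and YRF1-1 at 0.18, of 1824 ranked. RPB2 encodes the second largest subunit of RNA polymerase II, BCY1 the regulatory subunit of protein kinase A and PRS3 a phosphoribosylpyrophosphate synthetase. RPL15B and YRF1-1 have near-identical copies elsewhere in the genome, so their own values are uncertain. With 3 points per gene, this likeness is a description of level only.

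ARP2 and ARP3 are the actin-related subunits of the Arp2/3 complex, which together mimic the end of a filament from which a branch grows. ARP2 (YDL029W) had log2 ratios of -0.89, -1.66 and -1.03 in hybridizations 1, 2 and 3. Every value was below that of ACT1 on the same array. The mean was -1.20 ± 0.41 (SD, n = 3), with a 95% interval of -1.71 to -0.68 (limma adjusted p = 0.00577), and 3.62% of all tested had a lower mean. In the test of the 1891 genes and features with all 3 values, ARP2 was the only 1 of 8 members called (adjusted p = 0.00600), beside 11.5% lower among all. Without hybridization 2, which held its lowest value, the mean was -0.96 and missed the threshold (limma adjusted p = 0.063). Calls over all genes also fell there, from 838 of 4368 to 206 of 1933. Without hybridization 1 they fell to 164 of 2004, so losses of single calls in these settings are not particular to a gene.

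ARP3 (YJR065C) had log2 ratios of -0.36, 0.63 and -0.05, on both sides of 0. Its mean of 0.07 ± 0.51 (SD, n = 3) did not pass (limma adjusted p = 0.858), and the interval of -0.46 to 0.61 leaves room for a change of that size either way. In hybridization 2 the pair lay farthest apart, with ARP2 lowest of all members and ARP3 highest. Both scans of hybridization 2 gave ARP3 a value above 0, 0.57 at high and 0.69 at low power, and both gave ARP2 one far below 0, at -1.53 and -1.79. In hybridizations 1 and 3 ARP2 was also below ARP3. The mean of ARP3 was -0.20 without hybridization 2 and -0.25 after centring on position (limma adjusted p = 0.672 and 0.363).

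The other 5 subunits of the complex hold it together and contact the mother filament. ARC35 (YNR035C), a large structural subunit, had no value in hybridization 1 and was at -0.38 in hybridization 2 and -1.03 in hybridization 3. The 2 scans of hybridization 2 disagreed for this gene, with -0.61 at high and -0.16 at low power. Its mean of -0.71 ± 0.46 (SD, n = 2) did not pass (limma adjusted p = 0.111).

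ARC40 (YBR234C), the subunit with WD40 repeats, was at -0.43, -0.75 and -0.31, below 0 in every hybridization. Its mean was -0.50 ± 0.23 (SD, n = 3), with a 95% interval of -0.98 to -0.01 (limma adjusted p = 0.136). After centring on position it was called, at -0.55 (limma adjusted p = 0.0439).

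ARC18 (YLR370C), a small structural subunit, was at -0.37, -0.41 and -0.73, likewise below 0 throughout. Its mean of -0.50 ± 0.20 (SD, n = 3) did not pass (limma adjusted p = 0.129). ARC19 (YKL013C), another small subunit, gave nearly the same value each time, -0.39, -0.46 and -0.39. Its mean of -0.41 ± 0.04 (SD, n = 3) did not pass either (limma adjusted p = 0.197). The standard error of 0.21 comes mostly from the spread shared by all genes, since 3 values fix an SD poorly.

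ARC15 (YIL062C), the smallest subunit here, was at 0.00, -0.15 and -0.16, and its mean of -0.10 ± 0.09 (SD, n = 3) had an interval of -0.57 to 0.37 (limma adjusted p = 0.774). In hybridization 1 its scans lay on either side of 0, at -0.04 and 0.04. It was the only member whose scans differed in sign, among 18 pairs of scans.

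The median of the 7 Arp2/3 subunits was -0.50, beside -0.01 for all tested. It was -0.38 in hybridization 1 (6 subunits), -0.41 in hybridization 2 (7) and -0.39 in hybridization 3 (7), where all 7 were below 0. Of the 6 subunits with all 3 values, 4 were below 0 each time, and so were 23.8% of the 1891 genes and features with all 3 values. From lowest to highest mean the subunits ran ARP2, ARC35, ARC18, ARC40, ARC19, ARC15 and ARP3. The means of ARP2 and ARC35 cover different arrays. On the arrays they share, ARP2 was at -1.66 and ARC35 at -0.38 in hybridization 2, and both were at -1.03 in hybridization 3. The means of ARC35, ARC18, ARC40 and ARC19 lay within 0.29 of one another, and differences between subunits were not tested. Of these 4, ARC35 was the highest in hybridization 2, at -0.38, and the lowest in hybridization 3, at -1.03. Centred on position the subunit median was -0.25, and centred on ACT1 it was 0.08.

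**Figure D2:**
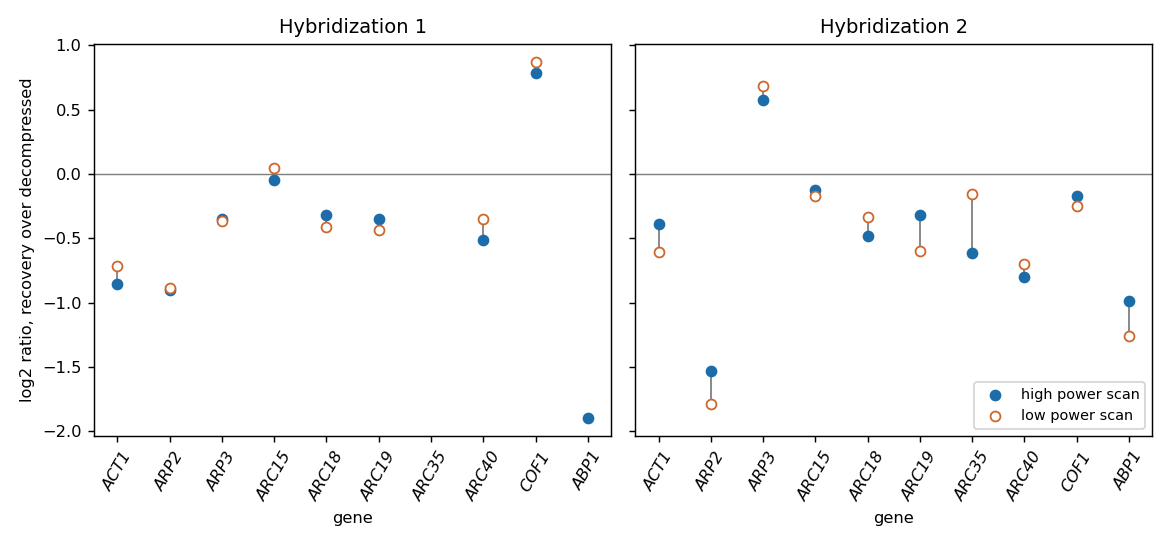
Log2 ratios of the high power scan (filled) and the low power scan (open) of hybridizations 1 and 2 for each member, joined by a line where both exist. In hybridization 1 the scans nearly coincide, and in hybridization 2 ARC35 has the widest gap, from -0.61 to -0.16.

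The members' scans agreed within 0.2 in 13 of 18 pairs, and 5 pairs were farther apart, all of them in hybridization 2. Over all genes the median gap between scans was 0.11 in hybridization 1 and 0.20 in hybridization 2. Scans of one hybridization repeat the reading of the same spots and were not counted as replicates.

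COF1 (YLL050C) encodes cofilin, which is essential and has no second copy in this yeast. Its log2 ratio was 0.83 in hybridization 1 and -0.21 and -0.27 in hybridizations 2 and 3. Hybridization 1 thus stood apart from the other two, with 0.78 and 0.87 in its 2 scans. The mean of 0.12 ± 0.62 (SD, n = 3) did not pass (limma adjusted p = 0.783), and 0.62 is the widest SD among the 10 genes. Without hybridization 1 the mean was -0.24 (limma adjusted p = 0.709). COF1 was 1.61 above ACT1 on the log2 scale in hybridization 1 and 0.29 and 0.18 above it in the other two.

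ABP1 (YCR088W) had the lowest mean of the 10. It was at -1.90 in hybridization 1, from the high power scan alone, and at -1.12 in hybridization 2, with no value in hybridization 3. Both values lay below those of ACT1 on the same arrays, by 1.11 and 0.62. The mean was -1.51 ± 0.55 (SD, n = 2), with a 95% interval of -2.17 to -0.85 (limma adjusted p = 0.00678), and 1.83% of all tested had a lower mean. With 2 values, its standard error of 0.30 rests mainly on the variance shared across genes. ABP1 kept its call in each of the 14 limma alternatives that gave it a value, at means of -1.55 to -0.87. Several of these could not change its values, such as leaving out hybridization 3 or taking the median of features. Another 2, both variance models, gave it the same adjusted p (limma, 4.65e-05). ABP1 had no test with low power scans alone or over genes with all 3 values. The plain one-sample test, which shares no variance across genes, called none of the members, so ABP1 lost its call there. ABP1 cannot be tested without hybridization 1 or 2.

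**Figure D3:**
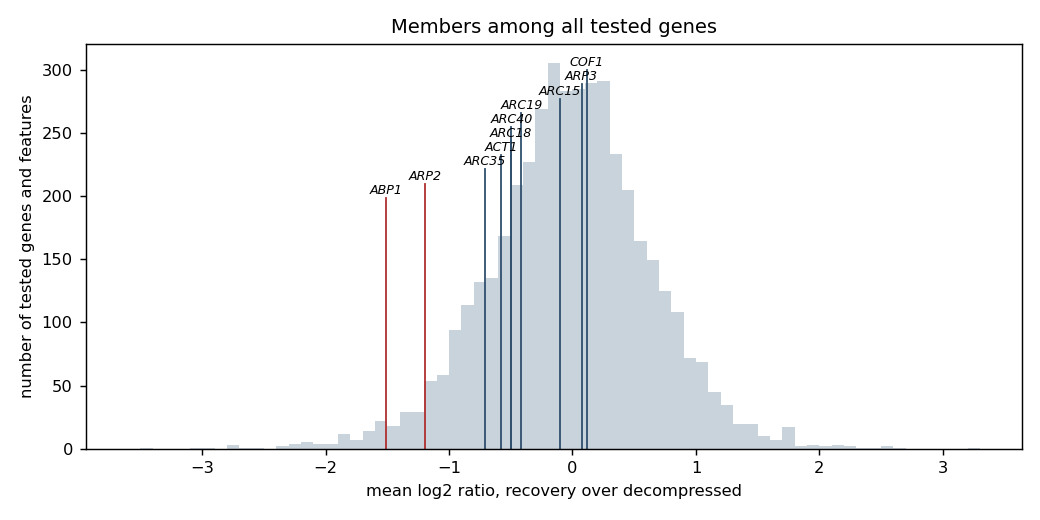
Histogram of the mean log2 ratio over the 4368 tested genes and features, in bins of 0.1, with the 10 members as vertical lines (red where called lower). ABP1 and ARP2 lie in the lower tail and the other 8 members between -0.71 and 0.12.

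The ratio ran with gene length in every hybridization, with a Spearman correlation across genes of -0.48, -0.24 and -0.23. Gene length is taken here from start to stop codon, introns included, and it separates the members. ARC15, ARC18, ARC19 and COF1 span 465 to 611 bases, and ARC35, ARC40, ARP2, ARP3, ACT1 and ABP1 span 1029 to 1779. After the trend on length was removed from each hybridization, 338 of 4170 tested genes were called lower. Among them were 4 of the 10 members. These were ARP2 at -1.05, ABP1 at -1.29, ARC18 at -0.81 and ARC19 at -0.74 (limma adjusted p = 0.013, 0.0132, 0.021 and 0.0314). ACT1 was then at -0.41 (limma adjusted p = 0.185), and COF1 turned to -0.15 (limma adjusted p = 0.694).

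Position on the array also moved some members, and 537 of all 4368 tested were called lower after centring within blocks. After centring within blocks, ARP2 was at -0.82 and ABP1 at -1.43, and both passed (limma adjusted p = 0.00807 and 0.00683). ARC40 passed there too, whereas ARC18 went to -0.07 and ARC19 to -0.20 (limma adjusted p = 0.792 and 0.430). ACT1 also passed, but its features all carry the same value, so the centring cannot correct it for position. With length and position removed together, a setting added after the data were seen, 476 of 4170 tested genes were lower. Among them were 4 of the 10 members. They were ABP1 at -1.24, ARP2 at -0.68, ARC19 at -0.53 and ARC15 at -0.51 (limma adjusted p = 0.00821, 0.0136, 0.0346 and 0.0471). ABP1 and ARP2 were thus called in all 4 of these scales. The share of length or position in the members' ratios was not tested further.

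**Figure D4:**
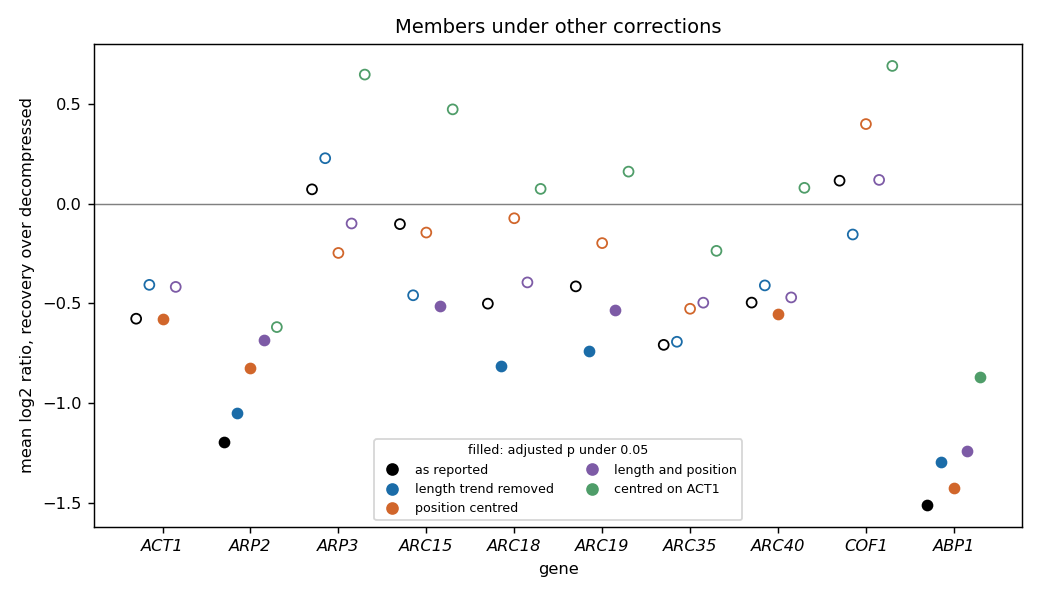
Mean log2 ratio of each member as deposited (black), with the length trend removed (blue), centred on position (orange), with both (purple) and centred on ACT1 (green), filled where the adjusted p was under 0.05. ABP1 is filled under each of the 5, and ARP2 under all but the centring on ACT1, where it is at -0.62.

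The genes around these members were described by 10 further lists, with 78 genes tested, of which 4 were higher and 4 lower. That is 10.3% called, beside the 19.2% of all tested. The list of factors that switch on or regulate Arp2/3 gave 0 calls among 5 tested in limma (2 with an unadjusted p under 0.05). Its median was -0.50. The 5 were the type I myosin MYO3, LSB1, BBC1, BZZ1 and CRN1, so the list does not describe activators alone. MYO3 was lowest, at -0.79 ± 0.43 (SD, n = 2, limma adjusted p = 0.0772). LAS17 and VRP1 had too few values for the test, and PAN1 and MYO5 were not analysed here.

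Proteins that bind filaments or recycle actin held 3 of the 4 genes called lower. Of 8 tested, these 3 fell and none rose, with a median of -0.35, beside 9.62% lower among all 4368 tested. With the length trend removed, 1 of the 8 was called lower. SRV2, the cyclase-associated protein that recharges actin monomers, was at -0.99 and -1.06 in hybridizations 1 and 2, a mean of -1.02 ± 0.05 (SD, n = 2, limma adjusted p = 0.026). CAP1, a subunit of the protein that caps filament ends, was at -0.61, -0.64 and -0.79 (mean -0.68 ± 0.10, SD, n = 3, limma adjusted p = 0.0457). The third was SAC6, the bundling protein fimbrin, at -0.74 ± 0.44 (SD, n = 3, limma adjusted p = 0.0482), named after its value was seen.

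These 3 calls were close to the threshold. CAP1 lost its call without any 1 hybridization (limma adjusted p = 0.0886 to 0.197) and with low power scans alone (limma adjusted p = 0.0517). Over genes with 1 or more values CAP1 and SAC6 both lost it (limma adjusted p = 0.0514 and 0.0542). SAC6 lost it without hybridization 1 or 2, at -0.51 and -0.77 (limma adjusted p = 0.372 and 0.151), and at -0.51 after the length trend was removed (limma adjusted p = 0.136). It also lost it after centring on position, at -0.64, and with high power scans alone, at -0.70 (limma adjusted p = 0.0512 and 0.0528). SRV2 was at -0.83 without the length trend (limma adjusted p = 0.0548). CAP2, the partner of CAP1 in the capping protein, was at 0.07, and the profilin gene PFY1 at 0.04, and neither passed (limma adjusted p = 0.867 and 0.910).

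Endocytic coat and adaptor genes had a median of -0.14 over 16 tested, with 1 higher and none lower. The riser was SYP1, an early protein of the endocytic site, at 0.74, 1.15 and 0.90 (mean 0.93 ± 0.21, SD, n = 3, limma adjusted p = 0.0142). Its call was lost without hybridization 1 or 2 (limma adjusted p = 0.0764 and 0.0983), and was at 0.60 after centring on position. The clathrin chain genes CHC1 and CLC1, at -0.13 and 0.40, were not called (limma adjusted p = 0.731 and 0.226).

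Formin and cable genes gave 0 calls among 5 tested in limma (1 with an unadjusted p under 0.05), although all 5 means were below 0 (median -0.56). BNR1, one of the formins, was lowest at -1.07 ± 1.07 (SD, n = 2, limma adjusted p = 0.0589), from values of -1.82 and -0.31. Of 6 genes tested in the myosin list, which also holds light chains and IQG1, 1 fell (limma, 4 with an unadjusted p under 0.05). It was MYO4, a motor that carries RNA to the bud, at -0.96 ± 0.35 (SD, n = 3, limma adjusted p = 0.015). Its call was lost after the length trend was removed, at -0.45 (limma adjusted p = 0.147), and without hybridization 1, at -0.92 (limma adjusted p = 0.112). After centring on position it was at -1.36.

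The chaperonin CCT and prefoldin, which fold actin and tubulin, had a median of 0.32 over 14 tested. It was 0.16 with the length trend removed. The list pools unlike means, from -0.41 to 0.40 for subunits of CCT and from 0.48 to 1.64 for those of prefoldin. On the deposited scale 1 gene of the list was higher and none lower. That gene was the prefoldin subunit GIM4, at 0.88 in hybridization 1 and 0.85 in hybridization 3 (mean 0.87 ± 0.02, SD, n = 2, limma adjusted p = 0.0486). PFD1, another prefoldin subunit, had the highest mean of the list, 1.64 ± 2.28 (SD, n = 3), from 4.25 in hybridization 1 and 0.62 and 0.06 in the other two, and was not called (limma adjusted p = 0.0653). GIM4 was at 0.44 after the length trend was removed (limma adjusted p = 0.271) and its call was lost without hybridization 2, where it had no value (limma adjusted p = 0.0841). Low power scans alone also lost the call, as did the test of genes with 1 or more values (limma adjusted p = 0.0869 and 0.0546). So did the 5 scans with hybridization as a random block, and centring with scaling (limma adjusted p = 0.058 and 0.0516).

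Among the polarity GTPases and their partners 2 of 12 rose and none fell, at a median of -0.06, beside 9.57% higher among all tested. RHO3, a GTPase of vesicle delivery and cable formation, was at 1.19, 1.69 and 0.59 (mean 1.16 ± 0.55, SD, n = 3, limma adjusted p = 0.00934). CDC42, the main GTPase of bud site polarity, was at 1.04, 0.52 and 0.83 (mean 0.80 ± 0.26, SD, n = 3, limma adjusted p = 0.0276). Both calls were lost when hybridization 1 was left out (limma adjusted p = 0.0723 and 0.223), and likewise hybridization 2 (limma adjusted p = 0.0947 and 0.0694). CDC42 was at 0.51 after the length trend was removed and no longer passed (limma adjusted p = 0.113).

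The actin-related proteins outside Arp2/3, most of them subunits of chromatin remodelling complexes, gave 0 calls among 6 tested in limma (1 with an unadjusted p under 0.05), at a median of 0.00. ARP6 was the one with the smallest p, at 0.69 ± 0.21 (SD, n = 2, limma adjusted p = 0.104). The septins gave 0 calls among 5 in limma (1 with an unadjusted p under 0.05) at a median of 0.24. CDC10, a septin of the bud neck, was at 0.54 ± 0.33 (SD, n = 3, limma adjusted p = 0.117). TUB2, for beta-tubulin, was the only tubulin tested and was at 0.49 ± 0.44 (SD, n = 3, limma adjusted p = 0.171).

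**Figure D5:**
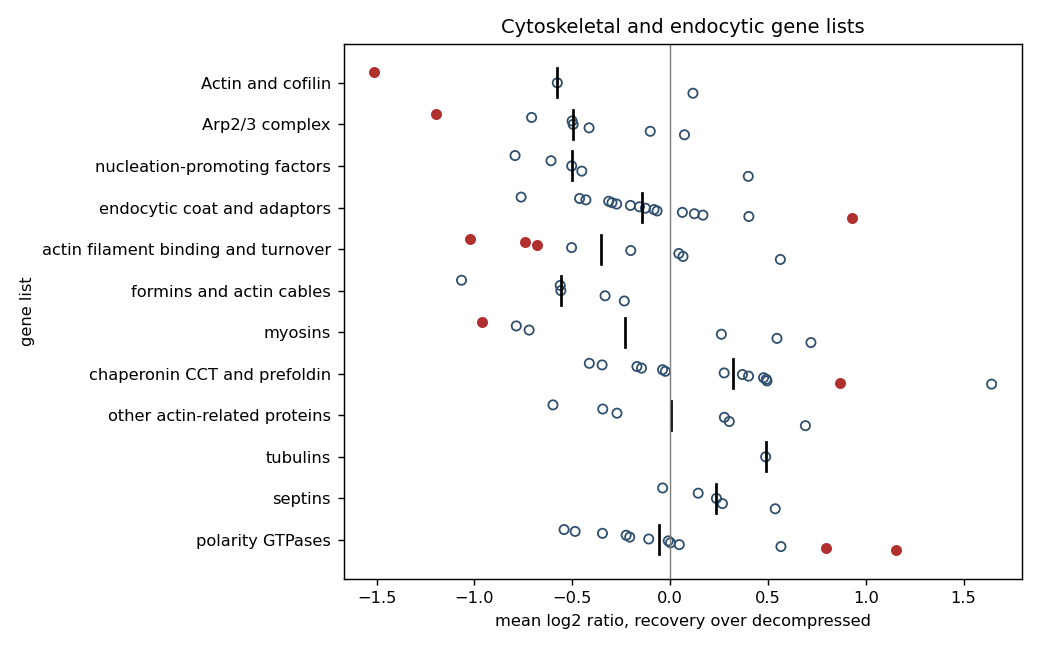
Mean log2 ratio of each tested gene in the 2 member lists and 10 related lists, filled red where called, with a black bar at the median of each list. Filled points to the left are ABP1, ARP2, SRV2, SAC6, CAP1 and MYO4, and those to the right SYP1, GIM4, CDC42 and RHO3.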

How the data were processed

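The deposited columns hold log2 ratios, LOWESS normalized by the authors with spots of flag 0, per the labels. The log2 base was read from the deposited values, whose lowest is the log2 of 0.01. Software version and genome build are not given in the sources used here. The platform annotation named 5297 of 6336 features, 5293 of them matched to RefSeq (assembly R64) by Entrez identifier. Features of a gene, then scans of a hybridization, were averaged, and each gene's mean was tested against 0 with limma 3.58.1 (R 4.3.3, lmFit) across all genes with at least 2 values, two-sided.

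The planned eBayes prior was replaced. Its moment estimate gave infinite degrees of freedom and, on data simulated with finite ones, too many false calls. A simulation that assumes finite degrees of freedom cannot decide which prior suits the deposited values. The prior was instead fitted by maximum likelihood (9.96 degrees of freedom, SD 0.407), and eBayes' own estimate was kept as an alternative. P-values rest on the spread between a gene's own hybridizations, pooled with the spread shared across genes, which carries most of the weight.

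The 10 members and the lists were chosen with earlier results of these data known. Named genes were the members, in each list up to 2 called genes per direction with the smallest p or else the 1 gene with the smallest p, and the 5 genes nearest to ACT1. SAC6, CAP2, PFY1, CHC1, CLC1 and PFD1 were named outside this rule, after their values were seen. LSB1, BBC1, BZZ1, CRN1 and IQG1 were named only to say what their lists hold. Alternatives were other scans, centring, scaling, length and position corrections, other variance models, other rules on missing values, the median of features, a plain one-sample test, and each hybridization left out.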

Additional observations from a re-analysis of the deposited data

How the results depend on the processing

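ACT1 stayed below 0 under every alternative run. It passed under 1, the centring on position, at -0.58, which cannot correct ACT1 itself for position. The count of members called was 2, both lower. It was 1 of 8 over genes with all 3 values and 1 of 9 with low power scans, where ABP1 could not be tested. Centred on ACT1 it was 1 of 9, with the call of ARP2 lost. With the length trend removed it was 4, beside 338 lower of all 4170 tested. It was also 4 with position centred and 4 with both, beside 537 lower of 4368 and 476 lower of 4170. Leaving out 1 hybridization gave 0 to 2 members called, and ABP1 could be tested only without hybridization 3. Without hybridization 2 the count was 0 of 8 (limma, 1 with an unadjusted p under 0.05). The plain one-sample t-test called 0 members and 0 genes in all, with 4 members and 668 genes at an unadjusted p under 0.05. The count over all genes was 838. It was 493 over genes with all 3 values, 1859 centred on ACT1 and 164 to 946 without 1 hybridization, with 164 of 2004 without hybridization 1 and 206 of 1933 without hybridization 2. With eBayes' own prior it was 1072.

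The Arp2/3 median of -0.50 was -0.45 over genes with all 3 values, -0.47 with low power scans, -0.69 without the length trend, -0.25 centred on position, -0.45 with array weights, -0.53 to -0.38 without 1 hybridization, and 0.081 centred on ACT1. Centring on ACT1 also turned ARC15 to 0.48, ARC18 to 0.076, ARC19 to 0.16 and ARC40 to 0.081, none called. ARP2 lost its call there, at -0.62. ARP3 turned to -0.25 centred on position, to -0.10 with length and position removed and ran from -0.20 (without hybridization 2) to 0.29 (without hybridization 1). COF1 turned to -0.15 without the length trend and ran from -0.24 (without hybridization 1) to 0.31 (without hybridization 3). The causes were not tested. No paired analysis was possible because there is 1 group of hybridizations, each holding both RNAs.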
